A study of Mus musculus with 4 samples.

Results

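The genes described here handle fatty acids on their way from the blood into the fat cell. They are 10 genes, chosen by symbol from the 19030 genes in the expression table: *Lpl*, *Gpihbp1* and *Angptl4*, which act in the capillary, *Cd36*, *Slc27a1*, *Slc27a2* and *Slc27a4*, which act at membranes, and *Fabp3*, *Fabp4* and *Fabp5*, which bind fatty acids in the cytosol. All 10 were listed and all 10 passed the filter on low values. RNA was sequenced from inguinal white adipose tissue (ingWAT), a subcutaneous depot, of C57BL/6 mice that the labels describe as 3 months old and kept at 4°C. Ctrl mice carried loxP-flanked *Oct3* without Cre. cKO mice carried the same floxed alleles together with a Cre transgene driven by the Adiponectin promoter, which removes *Oct3* (gene symbol *Slc22a3*), a transporter that takes up norepinephrine (NE), in adipocytes and leaves it in other cells of the depot. Both genotypes were thus cold exposed, and no group at room temperature or with Cre alone was analysed here. The study describes its prolonged cold exposure as lasting a month, and its methods give a milder temperature first. There were 2 libraries of each genotype (Ctrl 1, Ctrl 2, cKO 1 and cKO 2, in which order pairs of values are given), the number of mice in each is not given in the sources used here, and p-values measure only the spread between these libraries. The study asked whether loss of *Oct3* in adipocytes changes the thermogenic response of fat, and the comparison here asks which fatty acid uptake genes differed between the genotypes in the cold.

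Lipoprotein lipase, the product of *Lpl*, is made by adipocytes and frees fatty acids from triglyceride-rich lipoproteins at the capillary wall, where Gpihbp1, a protein of capillary endothelial cells, carries and anchors it. Angptl4 is a secreted inhibitor of the lipase. Freed fatty acids are taken up with the help of Cd36 and of the Slc27a proteins, which also couple fatty acids to coenzyme A, and are carried inside the cell by the small Fabp proteins. Cold is known to raise the uptake of lipoprotein fatty acids by thermogenic fat, in which *Fabp3* is a characteristic binding protein, whereas *Fabp4* is the adipocyte form and is also made in capillary endothelium and macrophages.

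Promoter sequence is shown for the pair of genes with the largest differences, *Slc27a2* and *Fabp3*, and for *Cd36*, a known target of the nuclear receptor Pparg, because binding sites often searched in fat were looked for in them. RefSeq promoter windows of GRCm38.p6, from 250 bases before the transcription start to 50 bases after it, were given for 5 of the 10 genes in 7 windows. Each line gives the 250 bases before one start, 5′ to 3′ on the strand of the gene, with matches to either half-site in capitals.
*Slc27a2*, chr2:126552774-126553023, plus strand: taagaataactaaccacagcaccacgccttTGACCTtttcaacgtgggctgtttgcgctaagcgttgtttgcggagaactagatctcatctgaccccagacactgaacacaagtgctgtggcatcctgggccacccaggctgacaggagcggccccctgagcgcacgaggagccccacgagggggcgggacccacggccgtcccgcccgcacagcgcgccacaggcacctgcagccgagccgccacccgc
*Fabp3*, chr4:130308488-130308737, plus strand: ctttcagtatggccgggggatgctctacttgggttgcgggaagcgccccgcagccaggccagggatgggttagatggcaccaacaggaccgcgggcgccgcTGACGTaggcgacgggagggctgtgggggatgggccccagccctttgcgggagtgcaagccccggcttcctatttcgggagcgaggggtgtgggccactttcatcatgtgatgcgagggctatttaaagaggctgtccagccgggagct
*Cd36*, chr5:17835897-17836146, minus strand: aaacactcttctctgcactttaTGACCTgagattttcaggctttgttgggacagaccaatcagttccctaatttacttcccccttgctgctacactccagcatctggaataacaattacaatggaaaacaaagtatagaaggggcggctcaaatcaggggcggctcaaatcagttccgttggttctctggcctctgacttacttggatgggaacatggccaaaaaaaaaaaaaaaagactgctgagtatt
The capitals in the *Slc27a2* and *Cd36* windows are TGACCT, the nuclear receptor half-site AGGTCA read on the opposite strand, beginning 220 and 228 bases before the start. The capitals in the *Fabp3* window are TGACGT, the core of the cAMP response element, beginning 149 bases before the start. Both strands were searched. The windows of *Slc27a4* and *Slc27a1*, which are not printed, held neither half-site. AGGTCA was found in 16.3% and TGACGT in 7.51% of the 32851 windows available, which do not cover every gene. The complete elements AGGTCANAGGTCA and TGACGTCA, which contain these letters, were in 0.0396% and 1.79% of all windows and in none of the 7. The *Slc27a2* and *Cd36* windows lie inside the gene spans given below, and the *Fabp3* window overlaps its span. The *Cd36* window is at an internal start, far from the outer end of that span at 17888801. A match of letters is a description of the sequence and does not show that a factor binds there.

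FPKM, a read count divided by transcript length and by library depth, summed to between 484152 and 497839 per library, and the estimated depth was 17400000 to 18150000 reads. *Slc22a3*, the targeted gene, was at 17.0 and 17.7 FPKM in Ctrl and 9.07 and 9.50 FPKM in cKO (log2 fold change -0.83, adjusted p = 0.000439 by limma). The 9 skeletal muscle markers summed to 2291 and 1540 FPKM in Ctrl and to 11.2 and 8.61 FPKM in cKO, so that the Ctrl libraries held muscle RNA that the cKO libraries lacked almost entirely. *Adipoq*, the adiponectin gene of adipocytes, was high in all 4 libraries and fell in cKO, from 1527 and 1485 FPKM to 966 and 1046 FPKM (log2 fold change -0.58, adjusted p = 0.00275 by limma), and the 6 brown and beige adipocyte markers were all higher in cKO (summed 1514 and 1790 FPKM in Ctrl against 4773 and 4034 FPKM in cKO).

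Of the 10 genes, *Slc27a2* and *Fabp3* rose in cKO and *Lpl*, *Gpihbp1* and *Cd36* fell, at an adjusted p under 0.05 in limma on log2(FPKM + 1) across 12658 genes. The other 5 (*Angptl4*, *Slc27a1*, *Slc27a4*, *Fabp4* and *Fabp5*) did not pass this threshold. Among all genes tested, 25.8% passed it, 12% as higher and 13.8% as lower in cKO. Leaving out Ctrl 1 took the 3269 genes called to 787 and the 3 falls to 0, leaving out Ctrl 2 gave 1478 genes and 1 fall, leaving out cKO 1 gave 2152 genes and 3 falls, and testing all 19030 genes gave 1762 genes and 1 fall, while the 2 rises were called in each case. The genotypes did not overlap in any of the 10 genes: the cKO values were above the Ctrl values in 4 and below them in 6. That held for 66.5% of all genes tested, so it says little about these genes in particular. The median log2 fold change was -0.20 over the 10 genes and -0.01 over all genes tested. The rises were larger than the falls: the 2 rises exceeded 1 on the log2 scale, and the 3 falls lay between -0.36 and -0.39. Each difference is between whole pieces of tissue, in which fewer cells of a type and less RNA per cell cannot be told apart.

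**Figure D1:**
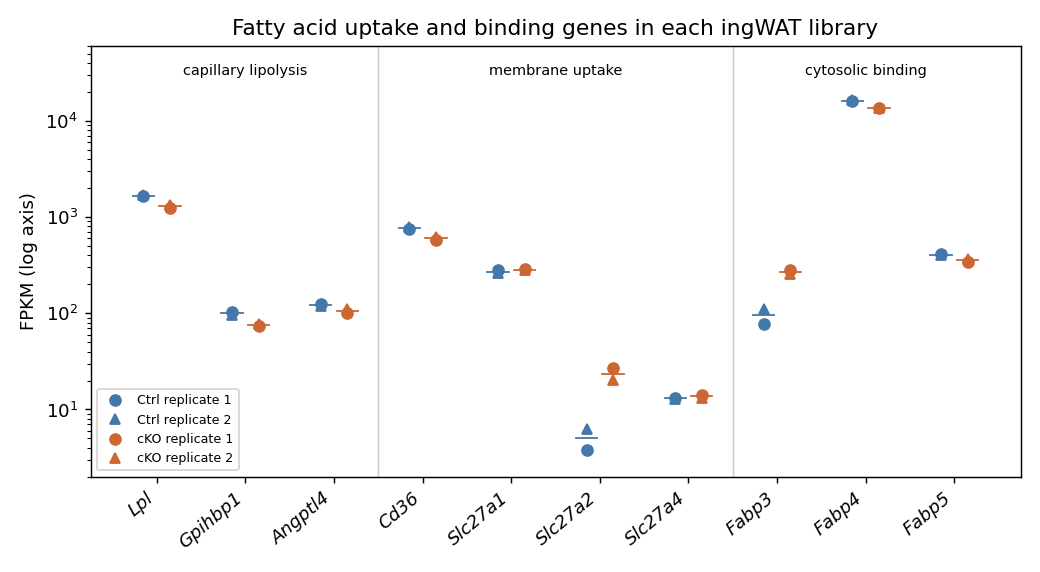
FPKM on a log axis of each of the 10 genes in the 4 libraries, with Ctrl and cKO libraries as separate points and the mean of each genotype as a line. *Fabp4* stands highest at 13456 to 16398 FPKM, and the separation of the genotypes is widest for *Slc27a2* and *Fabp3*.

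**Figure D2:**
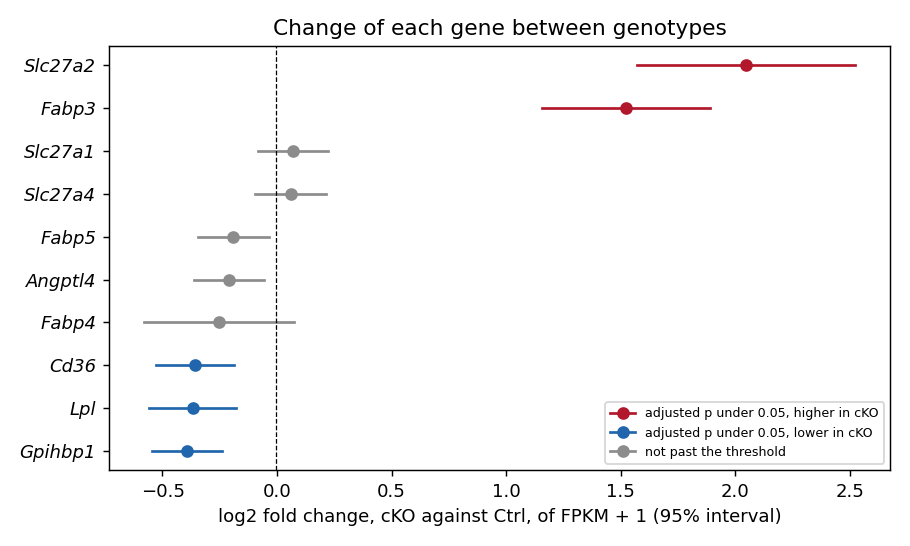
Log2 fold change of FPKM + 1 in cKO against Ctrl for each of the 10 genes, with its 95% interval from limma. *Slc27a2* (2.05) and *Fabp3* (1.52) lie to the right of 0, and *Lpl*, *Gpihbp1* and *Cd36* lie to the left with intervals that do not reach 0. The intervals of *Angptl4* and *Fabp5* also stop short of 0, without an adjusted p under 0.05.

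Of the 3 genes of the capillary step, 2 fell in cKO and the other did not pass the test. *Lpl* (Entrez gene 16956, GRCm38 chr8:68880491-68907448, plus strand, 10 exons) was at 1662 and 1679 FPKM in Ctrl and 1253 and 1337 FPKM in cKO. The Ctrl libraries nearly coincided and both cKO libraries lay below them. The means were 1670 ± 11.4 FPKM in Ctrl and 1295 ± 59.0 FPKM in cKO (SD, n = 2 each), and *Lpl* fell by 22.5% (log2 fold change -0.37, SE 0.0803, adjusted p = 0.0158 by limma). *Lpl* ranked the 18th most abundant transcript by FPKM in both Ctrl libraries and the 32nd and 28th in cKO 1 and cKO 2.

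*Gpihbp1* (gene 68453, chr15:75596628-75599481, plus strand), which holds the lipase on the capillary wall, was at 103 and 95.7 FPKM in Ctrl and 73.2 and 77.9 FPKM in cKO. All cKO values were under the lower Ctrl value, and *Gpihbp1* fell by 24.2% (log2 fold change -0.39, SE 0.0647, adjusted p = 0.00534 by limma). The ratio of *Gpihbp1* to *Lpl*, a ratio of FPKM, was 0.0622 and 0.0570 in Ctrl and 0.0584 and 0.0582 in cKO. Both cKO ratios lay inside the Ctrl range.

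*Angptl4* (gene 57875, chr17:33773750-33781830, minus strand), the lipase inhibitor, was at 126 and 119 FPKM in Ctrl and 102 and 110 FPKM in cKO. The mean difference of -13.6% did not pass the threshold (log2 fold change -0.21, 95% interval -0.363 to -0.0568, adjusted p = 0.0533 by limma). Its ratio to *Lpl* was 0.0758 and 0.0708 in Ctrl and 0.0810 and 0.0822 in cKO, and its ratio to *Gpihbp1* was 1.22 and 1.24 in Ctrl and 1.39 and 1.41 in cKO. Both ratios were higher in the cKO libraries than in the Ctrl libraries. No test of the ratios was run: they are given as values in every library, and an exact permutation test of 2 libraries against 2 could not give a p below 0.333.

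The call of *Lpl* held in 7 and that of *Gpihbp1* in 10 of the 11 alternatives that refit the model. *Gpihbp1* lost its call only without Ctrl 1. The size of the differences moved little for both genes. Without Ctrl 1 the log2 fold change of *Lpl* was -0.37 (adjusted p = 0.197 by limma) and that of *Gpihbp1* -0.34 (0.0728). Without Ctrl 2 *Lpl* was at -0.36 (0.18), and with all 19030 genes in the test it was at -0.37 (0.0901). Endothelial and white adipocyte markers were lower in cKO alongside these genes. Of 8 endothelial markers 5 were called lower and none higher, and their summed level was 304 and 297 FPKM in Ctrl against 253 and 267 FPKM in cKO. *Pecam1* differed little (64.4 and 63.0 FPKM in Ctrl, 59.4 and 62.7 FPKM in cKO) and *Cdh5* fell (59.8 and 61.6 against 50.2 and 52.1 FPKM). The ratio of *Gpihbp1* to the endothelial sum was 0.340 and 0.323 in Ctrl and 0.289 and 0.292 in cKO, lower in both cKO libraries. That of *Cd36* was also lower, at 2.47 and 2.63 in Ctrl and 2.28 and 2.32 in cKO. For *Fabp4* the ratio overlapped between the genotypes (52.3 and 55.2 against 53.1 and 51.0). For *Fabp5* it was not lower in cKO (1.352 and 1.351 against 1.359 and 1.376). These ratios were chosen after the values were seen. Log2 fold changes of the 8 single markers ranged from -0.60 to -0.06, and that of *Gpihbp1* (-0.39 with all libraries) lay within this range. Of 5 white adipocyte markers 3 (*Adipoq*, *Lep* and *Retn*) were lower and *Plin1* and *Cidec* were not called, with a sum of 4965 and 4707 FPKM in Ctrl and 3489 and 3648 FPKM in cKO. *Plin1*, a lipid droplet protein, was at 534 and 497 FPKM in Ctrl and 502 and 477 FPKM in cKO. The part of these cell types, and of the muscle RNA in Ctrl, in the levels of the 3 capillary genes was not tested.

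At the membrane, one gene rose, one fell and 2 did not pass the test. *Slc27a2* (gene 26458, chr2:126552407-126588243, plus strand, 10 exons) encodes a very long-chain acyl-CoA synthetase best known from liver and kidney. The study counted it among its thermogenic genes and, by real-time PCR, reported it significantly higher in *Oct3* KO ingWAT after cold. That PCR was based on the study's analysis of its RNA-seq data, so it was not chosen independently of them. In the libraries *Slc27a2* was at 3.78 and 6.21 FPKM in Ctrl and 26.9 and 20.1 FPKM in cKO. The lower cKO library was well above the higher Ctrl library. The means were 4.995 ± 1.72 and 23.5 ± 4.86 FPKM, a 4.70-fold rise (log2 fold change 2.05, SE 0.202, 95% interval 1.57 to 2.52, adjusted p = 0.000868 by limma). Among rises it had the 6th largest log2 fold change of the 12658 genes, and it moved from ranks 9720 and 8030 by FPKM in Ctrl to ranks 2747 and 3637 in cKO. In Ctrl 1 its value rests on about 198 reads, which gives a counting error of 7.11%, and the spread between the Ctrl libraries was larger than that.

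*Cd36* (gene 12491, chr5:17781690-17888801, minus strand, 15 to 16 exons in 5 transcripts), a fatty acid translocase of adipocytes and capillary endothelium, was at 751 and 782 FPKM in Ctrl and 578 and 620 FPKM in cKO. Both cKO values were below both Ctrl values, and *Cd36* fell by 21.9% (log2 fold change -0.36, SE 0.0721, adjusted p = 0.0117 by limma). The log2 fold change was -0.38 without Ctrl 1 (adjusted p = 0.117 by limma), -0.33 without Ctrl 2 (0.131) and -0.36 with all 19030 genes in the test (0.0609).

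The other Slc27a genes did not pass the threshold. *Slc27a1*, the main adipocyte form of the family, was at 281 and 260 FPKM in Ctrl and 285 and 282 FPKM in cKO (chr8:71568882-71587302, plus strand, log2 fold change 0.07, 95% interval -0.0829 to 0.222, adjusted p = 0.472 by limma). Its direction was reversed by quantile normalization, so no direction is given for it. *Slc27a4*, a widely expressed form, was at 13.2 and 13.0 FPKM in Ctrl and 14.1 and 13.3 FPKM in cKO (chr2:29802634-29817522, plus strand, log2 fold change 0.06, 95% interval -0.0951 to 0.215, adjusted p = 0.545 by limma). With 2 libraries per genotype, differences within these intervals could not be resolved.

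Both the mix of the Slc27a genes and their sum differed between the genotypes, and neither was tested. Because FPKM is scaled by length, levels of different genes can be set side by side, and the summed FPKM of *Slc27a1*, *Slc27a2* and *Slc27a4* was 298 and 279 in Ctrl and 326 and 315 in cKO. *Slc27a2* made up 1.27% and 2.22% of this sum in Ctrl and 8.25% and 6.36% in cKO. *Slc27a1* remained the main form, at 94.3% and 93.1% in Ctrl and 87.4% and 89.4% in cKO. In Ctrl *Slc27a4* was above *Slc27a2*, and in cKO it was below it.

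**Figure D3:**
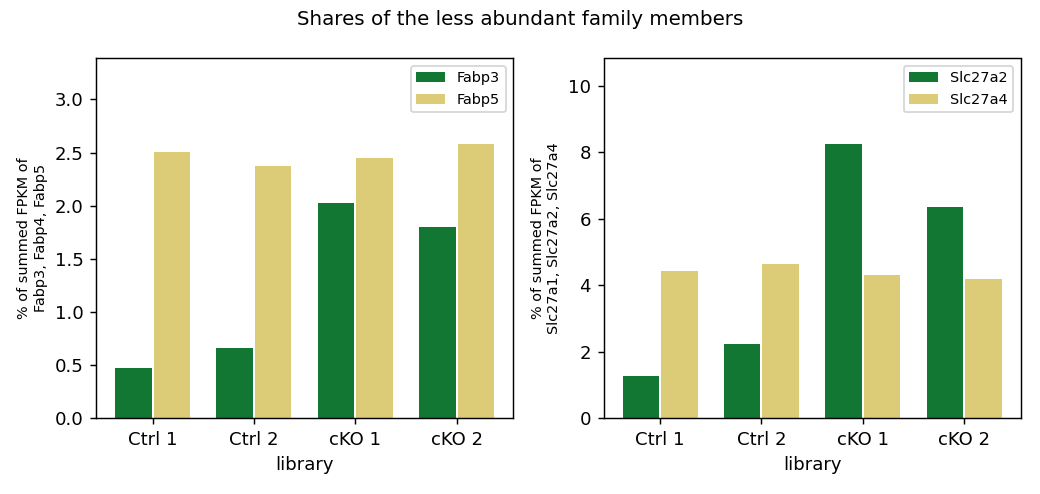
Bars give, for each of the 4 libraries, the percent of the summed FPKM of *Fabp3*, *Fabp4* and *Fabp5* held by *Fabp3* and *Fabp5* (left), and of the summed FPKM of *Slc27a1*, *Slc27a2* and *Slc27a4* held by *Slc27a2* and *Slc27a4* (right). *Fabp3* rises from at most 0.662% to at least 1.80% and *Slc27a2* from at most 2.22% to at least 6.36%, while *Fabp5* stays between 2.37% and 2.58%.

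Among the cytosolic binding proteins, *Fabp3* rose and the more abundant *Fabp4* and *Fabp5* did not pass the test. *Fabp3* (gene 14077, chr4:130308595-130315463, plus strand), the heart and muscle form that is also made by brown adipocytes, was at 77.6 and 112 FPKM in Ctrl and 285 and 256 FPKM in cKO. The cKO libraries were each above the higher Ctrl library by a wide margin. The means were 94.8 ± 24.3 and 270 ± 20.6 FPKM, a 2.85-fold rise (log2 fold change 1.52, SE 0.155, 95% interval 1.16 to 1.89, adjusted p = 0.000992 by limma), with the 23rd largest log2 fold change among rises. Skeletal muscle also makes *Fabp3*, and the muscle markers were higher in Ctrl. *Ckm*, the muscle creatine kinase, was at 333 and 210 FPKM in Ctrl and 0.56 and 0.35 FPKM in cKO. The brown and beige markers moved in the same direction as *Fabp3* and *Slc27a2*, with *Ucp1*, the uncoupling protein, at 335 and 446 FPKM in Ctrl and 1658 and 1420 FPKM in cKO. The part of muscle RNA and of brown and beige adipocytes in the levels of both genes was not tested.

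*Fabp4* (gene 11770, chr3:10204088-10208576, minus strand), the adipocyte form, was the most abundant transcript by FPKM in all 4 libraries. It was at 15874 and 16398 FPKM in Ctrl and 13456 and 13616 FPKM in cKO, and it held 3.24% and 3.39% of the summed FPKM of all genes in Ctrl against 2.71% and 2.74% in cKO. The groups did not overlap, and the mean difference was -16.1%, but the limma fit gave it a wide interval (log2 fold change -0.25, 95% interval -0.580 to 0.0732, adjusted p = 0.225). *Fabp5* (gene 16592, chr3:10012548-10016607, plus strand), the epidermal form also found in macrophages and endothelium, was at 411 and 401 FPKM in Ctrl and 344 and 367 FPKM in cKO (log2 fold change -0.19, 95% interval -0.343 to -0.0369, adjusted p = 0.0718 by limma). The mouse genome holds copies of *Fabp5* with similar sequence, and RSEM, which the submitters' notes name, divides shared reads by estimation, so part of its level may be uncertain. The keratinocyte markers summed to 1.85 to 2.61 FPKM over the 4 libraries, with *Krt5* at 0 in 3 of them, and the macrophage markers summed to 158 and 138 FPKM in Ctrl and 166 and 152 FPKM in cKO. Of 6 macrophage markers, 2 were called higher (*Cd68* and *Fcgr1*) and 2 lower (*Csf1r* and *Mrc1*), named here after their values were seen. The part of these cell types in the level of *Fabp5* was not tested.

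*Fabp4* and *Fabp5* lie near each other on chromosome 3 together with *Pmp2*, *Fabp9* and *Fabp12*, and none of these neighbours exceeded 0.45 FPKM in any library. The summed FPKM of *Fabp3*, *Fabp4* and *Fabp5* was 16362 and 16911 in Ctrl and 14085 and 14239 in cKO. *Fabp4* held 97.0% of it in both Ctrl libraries and 95.5% and 95.6% in cKO. *Fabp3* held 0.474% and 0.662% in Ctrl and 2.02% and 1.80% in cKO. The ratio of *Fabp4* to *Fabp3* was 204 and 146 in Ctrl and 47.2 and 53.3 in cKO. In cKO, too, *Fabp4* was thus at least 47.2 times as abundant as *Fabp3*.

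By level, the order in Ctrl was *Fabp4*, *Lpl*, *Cd36*, *Fabp5*, *Slc27a1*, *Angptl4*, *Gpihbp1*, *Fabp3*, *Slc27a4* and *Slc27a2*. Of neighbours in this order, *Gpihbp1* and *Fabp3* overlapped between the Ctrl libraries, and the others did not. In cKO, *Fabp3* stood above *Angptl4* and *Gpihbp1* and overlapped with *Slc27a1*, and *Slc27a2* stood above *Slc27a4*. The remaining genes kept their order. The 10 genes together held 3.94% and 4.10% of the summed FPKM of all genes in Ctrl and 3.30% and 3.35% in cKO, most of it *Fabp4*.

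Other genes of fatty acid uptake were read from a list of 45, of which 44 were in the table and 35 could be tested. In cKO 5 of the 35 were higher, 13 were lower and 17 did not pass the threshold, and the median log2 fold change was -0.10. Over all genes tested 12% were higher and 13.8% lower, and the median was -0.01. Without Ctrl 1 the counts in the list were 2 higher and 3 lower, and 787 of the 12658 genes were called. Of the transcription factors, *Ppara*, a nuclear receptor that drives fatty acid oxidation genes, rose from 7.04 and 9.60 FPKM to 19.4 and 16.8 FPKM (log2 fold change 1.04, adjusted p = 0.00206 by limma). *Pparg*, the main nuclear receptor of adipocytes, fell from 141 and 143 FPKM to 116 and 123 FPKM (log2 fold change -0.25, adjusted p = 0.0196 by limma), and 5 of the 11 alternatives that refit the model, among them leaving out Ctrl 1 (adjusted p = 0.116), Ctrl 2 (0.12) or cKO 1 (0.082), ended that call.

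The 3 genes of caveolae in the list, *Cav1*, *Cav2* and *Cavin1*, were called lower in cKO. Caveolae are membrane pits abundant in adipocytes and endothelium. *Cav2* fell from 114 and 113 FPKM in Ctrl to 64.1 and 71.5 FPKM in cKO (log2 fold change -0.74, adjusted p = 0.000671 by limma). *Cav1* fell from 484 and 487 FPKM to 311 and 340 FPKM (log2 fold change -0.58, adjusted p = 0.00161 by limma). Both kept their call in the 11 alternatives that refit the model, and neither passes 1 on the absolute log2 scale. No other gene of the 9 tested membrane and caveolar genes was called lower, and 3 were called higher. The higher ones were *Ffar4*, a receptor for long-chain fatty acids (12.9 and 14.4 FPKM in Ctrl, 20.5 and 19.0 in cKO), *Got2*, a mitochondrial aminotransferase also described as a plasma membrane fatty acid binding protein (22.4 and 21.7 against 30.5 in both cKO libraries), and *Lyn*, a kinase of the Src family (17.6 and 18.7 against 22.4 and 23.0). The call of *Lyn* was lost without Ctrl 1 (adjusted p = 0.112 by limma), Ctrl 2 (0.0519) or cKO 2 (0.0585).

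Of 13 tested partners and regulators of the lipase, 1 was higher and 2 were lower, a share near the 25.8% called over all genes tested. *Apoc1*, an apolipoprotein that inhibits the lipase, rose from 174 and 176 FPKM to 315 and 257 FPKM (log2 fold change 0.70, adjusted p = 0.00274 by limma). *Pcsk6*, a proprotein convertase, fell from 30.5 and 28.4 FPKM to 19.9 and 19.4 FPKM, and *Hspg2*, the heparan sulfate proteoglycan perlecan, fell from 31.3 and 29.2 FPKM to 22.7 and 22.8 FPKM. Of 4 lipoprotein receptors 3 were lower, among them *Scarb1*, which fell from 64.7 and 60.3 FPKM to 44.4 and 48.5 FPKM. Of 5 genes of endothelial fatty acid transport 3 were lower, and of the 7 other lipid binding proteins in the list none reached the level needed for a test. Without Ctrl 1 the adjusted p was 0.0613 for *Apoc1*, 0.0626 for *Ffar4*, 0.0743 for *Scarb1* and 0.0625 for *Hspg2* (limma).

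**Figure D4:**
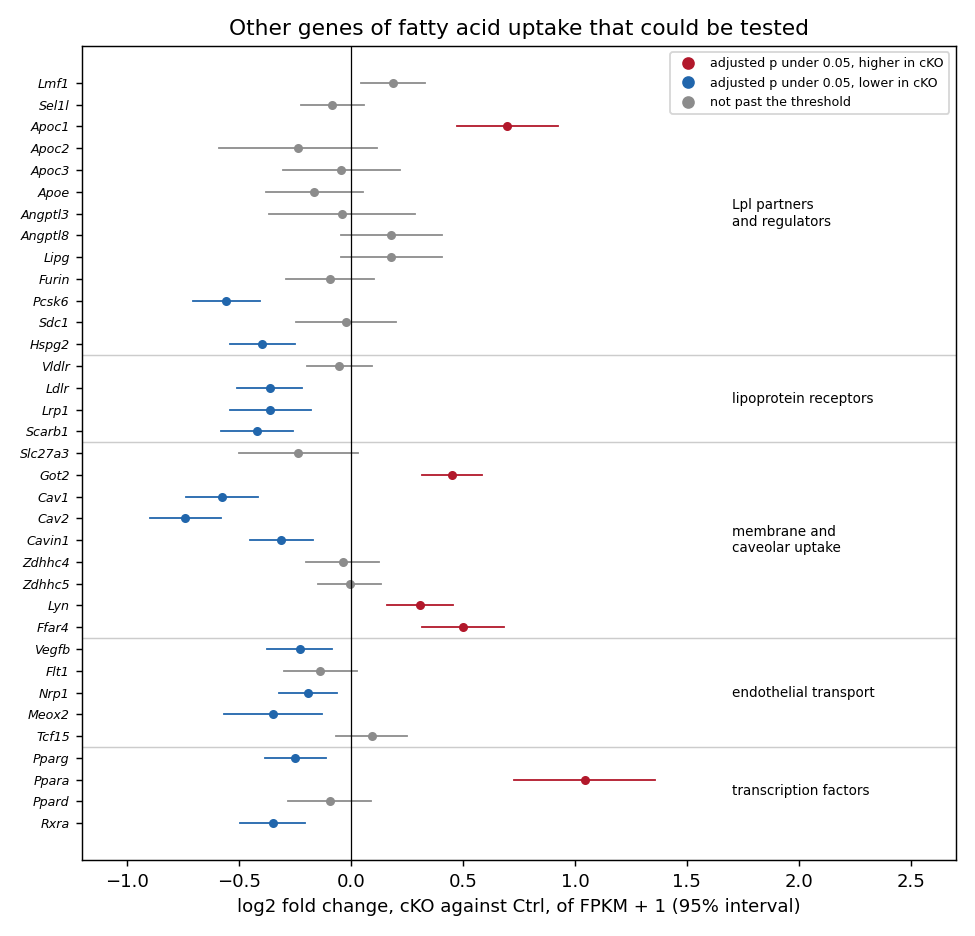
Log2 fold change of FPKM + 1 in cKO against Ctrl, with its 95% interval from limma, for the 35 tested genes of the pathway list, grouped by role. The 5 higher genes are led by *Ppara* (1.04) and the 13 lower genes by *Cav2* (-0.74).

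The other cell types of the depot also differed between the genotypes. Of 4 markers of fibroblast progenitors 3 were lower in cKO (summed 970 and 818 FPKM in Ctrl, 463 and 494 FPKM in cKO), 4 of 4 B cell markers were higher (190 and 215 against 305 and 345 FPKM) and 3 of 3 T cell markers were higher (38.6 and 42.3 against 57.4 and 74.9 FPKM). Markers of slow muscle and of epithelium summed to at most 0.36 and 0.65 FPKM. The part of these differences in the levels of the 10 genes was not tested.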

How the data were processed

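Polyadenylated RNA of ingWAT was sequenced single-end by the authors, and FPKM for each gene in each of the 4 libraries was deposited, to the hundredth. The submitters' processing notes name HISAT2 2.0.4, RSEM 1.2.12 and mm10, and no scaling between libraries is given in the sources used here. FPKM removes transcript length but not composition: genes abundant in some libraries lower the FPKM of all others there. Libraries were assigned to Ctrl and cKO by their titles, and 0 per-sample columns were left unused. Symbols of 24 genes had become dates, none of them named here, and a RefSeq gene table held 18977 of the 19030 gene IDs.

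Genes were tested where FPKM averaged 1 or more, and were compared on log2(FPKM + 1), a scale that understates changes of low genes, with limma 3.58.1 in R 4.3.3 (lmFit, eBayes with a trend, two-sided), and p-values were adjusted over 12658 genes by the Benjamini-Hochberg method, with a threshold of 0.05. In simulated data for this comparison with 12658 genes the procedure called 199 of 200 changed genes and 7 unchanged ones. These counts are not split by size of change. All planted changes were larger than those of *Lpl*, *Gpihbp1* and *Cd36*, so the rate for differences as small as these was not tested. The noise was drawn from the model fitted to these data, so departures of the real spread from that model were not tested either. Depth was estimated from the single-read steps of 291 short RNA genes, in which 84.4% to 90.7% of the values were whole reads within 0.1 (largest error 1.98% on 3 simulated libraries). Intervals for counting error cover that error only.

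The members and gene lists were chosen with earlier results of these data known. All 10 members are named. Of the pathway list, up to 5 genes in each direction with the largest log2 fold change among those called and not overlapping are named, with *Pparg*, *Ppara* and *Slc22a3*. Outside this rule, *Cavin1* is named as a gene of caveolae, and *Pmp2*, *Fabp9* and *Fabp12* as neighbours of *Fabp4*. Marker lists are given by their sums and, where a result touches them, by 1 or 2 of their first genes. In addition, all white adipocyte markers and the called macrophage markers are named. Gene positions are from GENCODE M21 on GRCm38, the assembly of mm10, and promoter sequences are from RefSeq (GRCm38.p6). The ratios to endothelial markers and of *Angptl4* to *Gpihbp1* were chosen after the values were seen. Tables and plots were made in Python 3.11.15 (pandas 2.3.3, numpy 2.4.6, matplotlib 3.10.9). Alternatives were to leave out each library in turn, to add the replicate number as a block, to drop the filter or raise it to 5 FPKM, to lower the pseudocount to 0.1, to scale by quantiles or by median ratios, to drop the eBayes trend, and to ask for an absolute log2 fold change of 1.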

Additional observations from a re-analysis of the deposited data

How the results depend on the processing

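*Slc27a2* and *Fabp3* were called higher in cKO under the 11 alternatives that refit the model and at an absolute log2 fold change of at least 1, with log2 fold changes of 1.75 to 2.34 and 1.26 to 1.78 and adjusted p of at most 0.0353 and 0.0358 by limma. The number of the 10 genes called lower, 3, became 1 with no filter, 5 with quantile normalization, 0 at an absolute log2 fold change of at least 1, and 0 to 3 with a library left out. The 3269 genes called among all tested became 1762 with no filter, 233 at an absolute log2 fold change of at least 1, and 787 to 2340 with a library left out, the lowest without Ctrl 1. The pathway list gave 1 higher and 0 lower at that fold, and 2 to 5 higher and 3 to 10 lower with a library left out. Under quantile normalization the log2 fold change of *Slc27a1* was reversed to -0.0405, *Angptl4* (adjusted p = 0.0459) and *Fabp5* (0.0109) were called lower by limma, and that of *Fabp4* was 0, because the top gene of each library is given the same value by that method. *Angptl4* was also called at a mean FPKM of at least 5 (0.0337) and *Fabp4* by eBayes without a trend (0.044). With the replicate block 3383 genes were called, and *Lpl* was not (adjusted p = 0.0766). Deviations of same-numbered libraries had a correlation of 0.0148 over 12658 genes with 2 pairs. Whether same-numbered libraries share an effect in some of the genes was not tested. No scaling moved the median of all genes by more than 0.1 on the log2 scale. Fits without a library assume that the lone library of a genotype varies like the other genotype. Leaving out a library removes one of the 4 samples from the fit, and the cause of the other changes was not tested.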
